A study of Mus musculus with 7 samples.

Results

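The 9 genes described here code for non-classical class I molecules of the mouse: H2-Q4, H2-Q6, H2-Q7, H2-T22, H2-T23, H2-T24, H2-M3, Cd1d1 and Mr1. They were picked by symbol, and all 9 were found among the 32285 genes of the count tables. Whole brain tumours grown from NSCG-mCherry, mouse glioma cells labelled EGFRvIII+ and Arf/Ink4a-/- (an active EGF receptor variant and loss of a tumour suppressor locus), were profiled cell by cell with droplet RNA libraries, 7 in all. The stated aim covers how glioma and its immune surroundings respond as immunotherapies vary. The questions taken up here are which cell classes hold each gene, and whether tumour cells hold more of it where they hold more interferon-response RNA.

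The hosts were C57BL/6 mice of 7 to 10 weeks with a genotype given as WT, and each library pooled tumours of at least 2 mice taken at about day 14. UT (1 library) was untreated. IgG (2 libraries) received an IgG2b isotype antibody at 10 mg/kg, with the gavage diluent where it served BPI; the labels do not say which library that was. BP (2 libraries) received 5 mg/kg of B20, which blocks VEGF, together with 10 mg/kg of anti-PD-L1, every 3 days from day 6 to 7 after implantation. BPI (1 library) received the same antibodies with IPI-145, a PI3K inhibitor, at 10 mg/kg daily by gavage. CD40 (1 library) received an agonist antibody against CD40 at 100 µg a dose, as 2 doses 5 days apart, although the series text gives 3 rounds for all treated groups and the labels do not say whether a dendritic cell vaccine was added. All tumours came from the line with this label, so there was no group of another line to compare. Because mice were pooled, the spread between libraries is not the spread between mice, and with 1 library in UT, BPI and CD40 their spread was taken from IgG and BP.

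Classical class I molecules, the products of H2-K1 and H2-D1, show peptides from inside the cell to CD8+ T cells, and need B2m, the light chain, at the surface. Non-classical members vary little between animals and show narrower cargo: H2-T23 codes for Qa-1, read by the CD94/NKG2 receptors of NK and T cells; H2-Q6 and H2-Q7 code for Qa-2; H2-M3 holds peptides that start with formyl-methionine; H2-T22 is bound by some gamma-delta T cells; Cd1d1 shows lipids to NKT cells; and Mr1 shows metabolites of riboflavin synthesis to MAIT cells. Interferons are known to raise transcription of many class I genes through an interferon-stimulated response element (ISRE) near the start site, beside an X and Y box module on which the activator NLRC5 acts.

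The members lie in 3 places on GRCm38. H2-Q4 (chr17:35379617-35385290), H2-Q6 (chr17:35424850-35430055) and H2-Q7 (chr17:35439155-35443773) are on the plus strand of the MHC. H2-T24 (chr17:36005695-36020560), H2-T23 (chr17:36029773-36032855) and H2-T22 (chr17:36037128-36042747) follow on the minus strand, and H2-M3 (chr17:37270220-37274484) is on the plus strand. Cd1d1 (chr3:86995834-86999441) and Mr1 (chr1:155127277-155146814) lie outside the MHC, both on the minus strand.

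Promoters of 7 of the 9 members had an entry in the set of RefSeq promoters used here (GRCm38.p6). H2-T24 and Cd1d1 had none in this set and were not searched. Starts are those of RefSeq, and some lie inside the gene spans given above, which come from another annotation. Among the members this holds for H2-T22, for H2-M3 and for H2-T23, and the ISRE core and CCAAT of H2-T23 also lie inside its span. The 250 bases before each start were searched on both strands for 3 motifs. These were an ISRE core (GAANNGAAA, or the same with 1 more A before the NN), the core of the X2 box (TGATGAC) and the core of the Y box (CCAAT). An ISRE core was found before H2-Q4, H2-Q6, H2-Q7, H2-T22, H2-T23 and H2-M3, as before H2-K1, H2-D1 and B2m, while 8.82% of 32851 promoters hold it. The X2 core was found before H2-Q4, H2-Q6, H2-Q7, H2-T22 and H2-M3 (2.69% of promoters), and CCAAT is common (33.8% of promoters). Mr1 had a match to none of the 3 motifs, which says only that these letters are not in this window. Shown are 200 bases each of the members on which the interferon results below turn and of Mr1, 5′ to 3′ on the gene's strand, with all matches on either strand in capitals: H2-T23 (chr17:36032702-36032901, minus; ISRE core 124 bases before the start, CCAAT at 52), H2-Q7 (chr17:35438955-35439154, plus; ISRE core at 113, X2 core at 67, CCAAT at 40 and 16), H2-M3 (chr17:37270034-37270233, plus; ISRE core at 101, X2 core at 49, CCAAT at 129, 36 and 21) and Mr1 (chr1:155146815-155147014, minus).
H2-T23: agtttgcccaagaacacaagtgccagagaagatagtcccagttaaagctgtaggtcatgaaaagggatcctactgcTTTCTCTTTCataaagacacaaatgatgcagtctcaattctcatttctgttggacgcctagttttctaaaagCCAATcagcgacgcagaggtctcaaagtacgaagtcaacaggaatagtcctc
H2-Q7: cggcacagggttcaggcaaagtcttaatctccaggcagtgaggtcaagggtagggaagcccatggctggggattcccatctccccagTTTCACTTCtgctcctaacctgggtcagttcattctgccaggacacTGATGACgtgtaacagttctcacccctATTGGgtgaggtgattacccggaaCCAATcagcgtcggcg
H2-M3: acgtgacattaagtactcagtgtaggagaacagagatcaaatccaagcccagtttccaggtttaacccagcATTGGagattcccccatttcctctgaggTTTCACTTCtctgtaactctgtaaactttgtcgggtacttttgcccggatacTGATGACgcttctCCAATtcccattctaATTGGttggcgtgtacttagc
Mr1: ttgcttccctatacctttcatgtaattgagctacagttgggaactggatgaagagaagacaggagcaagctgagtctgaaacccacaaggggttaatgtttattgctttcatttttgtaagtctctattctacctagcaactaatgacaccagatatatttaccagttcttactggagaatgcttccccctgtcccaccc

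The libraries held 68997476 to 186793886 unique molecular identifiers (UMIs), and 48588 cells remained after filters and removal of 3207 doublets. Clusters were named from marker genes as tumour-like, microglia-like and so on. This placed 43106 cells in 18 classes and left 5482 unnamed, of which 1564 were in UT and 1180 in IgG replicate 1. Tumour-like cells numbered 2559 in UT and 4097 to 6111 elsewhere, and their summed tumour markers stood at 920.4 to 1333 CPM (the UMIs of a gene scaled to the same total in each class and library), with Ptprc at 0.293 to 6.59 CPM. Cdkn2a, the gene of the Arf/Ink4a locus, stood at 154 to 198 CPM in tumour-like cells of every library, which goes against the label as written; which part of the locus was deleted is not given in the sources used here, so the loss was not checked. Egfr, the gene of the EGF receptor, stood at 60.6 CPM in tumour-like cells of UT and at 161 to 226 in those of the other 6 libraries, and its part in the differences of UT was not tested. UT lists fewer barcodes (713553 against 1487060 to 2310016) and draws on another barcode list, so for UT library and group cannot be told apart. It shared 0 to 3 cell barcodes with any other library, while the others shared 10 to 26 with each other. Cells of UT and BP replicate 1 clustered apart. Of a pair of tumour-like clusters 99.3% and 92.3% of the cells came from UT, and 97.3% of another tumour-like cluster came from BP replicate 1. The IgG libraries also led different tumour-like clusters. IgG replicate 2 gave 52.7% of the cells of a cluster, and IgG replicate 1 gave 39.3% of those of another. Microglia markers in tumour-like cells summed to 125 CPM in IgG replicate 1 and 233 in IgG replicate 2. Whether both IgG libraries hold the same tumour-like populations was not tested. Going by consecutive library names, IgG replicate 1 stands with BP replicate 2 and BPI (called set A here), and IgG replicate 2 with CD40 (set B), so BP replicate 1 and UT have no control in their own set. Any 2 libraries shared at most 0.384% of cell barcodes.

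H2-T23, the Qa-1 gene, was held by nearly every class, and at its highest by both dendritic-like classes. In plasmacytoid dendritic-like cells it stood at 532 CPM in BP replicate 1, 881 in BPI and 1022 in UT, and in dendritic-like cells at 411 in BP replicate 1 and 1083 in UT; no other library had 20 such cells. In monocyte/macrophage-like cells it stood at 114 and 85.1 CPM in IgG replicates 1 and 2, 93.6 in CD40, 273 in BP replicate 1, 310.2 in BP replicate 2, 515 in BPI and 815 in UT. In tumour-like cells the values in the same order were 16.4, 21.2, 21.1, 131, 20.3, 39.7 and 286 CPM. UT was thus highest in both classes, but BP replicate 1 was above BPI in tumour-like cells and below it in monocyte/macrophage-like cells, and BP replicate 2 was within the IgG range in tumour-like cells only. In CPM, each of the 27 sums of monocyte/macrophage-like, microglia-like, T-like and NK-like cells exceeded the tumour-like level of its library. The median ratio was 4.43 in monocyte/macrophage-like, 3.80 in microglia-like, 8.91 in T-like and 8.32 in NK-like cells. Levels in CPM are shares of a class's UMIs, not amounts per cell. Median UMIs per cell were 4312 in the T-like cluster, 2921 in the NK-like cluster and 11505 in the largest tumour-like cluster. Tumour-like cells still held 37.9% (BPI) to 81.9% (IgG replicate 1) of all H2-T23 UMIs, and they made up 47.3% to 81.6% of the cells.

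H2-Q7 and H2-Q6, the Qa-2 genes, and H2-Q4 were also spread over immune, endothelial and tumour-like cells. H2-Q7 in T-like cells stood at 229 and 157 CPM in IgG replicates 1 and 2, 241 in CD40, 283 and 375 in the BP libraries 1 and 2, 506 in BPI and 293 in UT, and in tumour-like cells at 25.8, 22.4, 26.6, 211, 47.5, 64.0 and 356 CPM in the same order. The T-like level in CPM was thus above the tumour-like level in 6 of 7 libraries, and below it in UT. H2-Q6 exceeded the tumour-like level in 26 of 27 sums of the 4 immune classes, and its highest class mean was that of dendritic-like cells (186 CPM in BP replicate 1 and 307 in UT). H2-Q4 did so in 18 of 27: in UT and BP replicate 1 both monocyte/macrophage-like and T-like cells were below the tumour-like level. Its monocyte/macrophage-like level was 171 CPM in UT and 64.5 in BP replicate 1, beside 272 and 141 CPM in tumour-like cells.

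H2-T22, a ligand of gamma-delta T cells, was the member for which microglia-like cells stood below tumour-like cells in all 7 libraries (median ratio 0.555). Its microglia-like level was 5.14 and 9.18 CPM in IgG replicates 1 and 2, 11.8 in CD40, 67.3 and 13.8 in the BP libraries 1 and 2, 25.05 in BPI and 92.5 in UT. In T-like cells it was above the tumour-like level in 7 of 7 libraries, at 64.6 to 268 CPM. H2-M3, which holds formylated peptides, was above the tumour-like level in monocyte/macrophage-like and microglia-like cells in 7 of 7 libraries each, with a narrow range in monocyte/macrophage-like cells (41.0 CPM in IgG replicate 2 to 93.0 in BPI). In plasmacytoid dendritic-like cells H2-M3 stood at 92.4 CPM in BP replicate 1, 192 in BPI and 85.7 in UT.

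H2-T24 stood low in tumour-like cells and higher in several classes of white blood cells. Tumour-like cells had 6 to 41 UMIs of it per library, or 0.100 CPM in IgG replicate 2 to 0.682 in UT, and in BPI and BP replicate 2 an estimated 29.8% and 40.6% of that level could be free RNA from other cells. Plasmacytoid dendritic-like cells had 44.3 CPM in BP replicate 1 (84 UMIs, exact 95% Poisson interval 35.4 to 54.9 CPM, counting error only), 50.7 in BPI (5 UMIs) and 33.7 in UT (11 UMIs). Dendritic-like cells had 2 UMIs in BP replicate 1 and 1 in UT, and neutrophil-like cells, measured in BP replicate 1 alone, had 2, below the 3 counts taken as the floor. In monocyte/macrophage-like cells H2-T24 ranged from 0.696 CPM in CD40 (2 UMIs) and 6.84 in IgG replicate 2 to 24.3 in BPI and 28.9 in IgG replicate 1. The IgG libraries lay far apart. All 27 immune sums were above the tumour-like level, but some of them lie below the floor of 3 counts, such as monocyte/macrophage-like cells of CD40 (2 UMIs).

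Cd1d1, which shows lipids to NKT cells, was highest in dendritic-like cells, at 103 CPM in BP replicate 1 (37 UMIs, exact 95% Poisson interval 72.3 to 142) and 127 CPM in UT (29 UMIs, 85.1 to 183). In the 8 classes with 3 or more libraries it averaged 2.55 CPM (tumour-like) to 9.07 CPM (B-like), and plasmacytoid dendritic-like cells had 5 UMIs in BP replicate 1, 0 in BPI and 3 in UT. The leading genes of the dendritic-like cluster were Ccr7, Ccl22 and Ramp3, the first a marker of dendritic cells that migrate to lymph nodes. Mr1, which shows riboflavin metabolites, was laid out differently: it averaged 8.28 ± 1.201 CPM in tumour-like cells (SD over 7 libraries) and 1.39 CPM in dendritic-like cells, and its highest class mean was in choroid plexus-like cells (27.1 CPM in IgG replicate 2 from 15 UMIs, and 23.7 in CD40 from 42 UMIs). Immune sums exceeded the tumour-like Mr1 level in 9 of 27 cases, against 27 of 27 for H2-T23 and H2-T24. Over all members, 187 of 243 such sums did, but the share over all genes was not computed, so this count has nothing to be set beside. Some of the sums lie below the floor of 3 counts, such as that of H2-T24 in monocyte/macrophage-like cells of CD40. These class levels are a description, since the classes come from clusters of the same cells, although the members, the interferon list and the class I pathway were left out of the clustering.

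**Figure D1:**
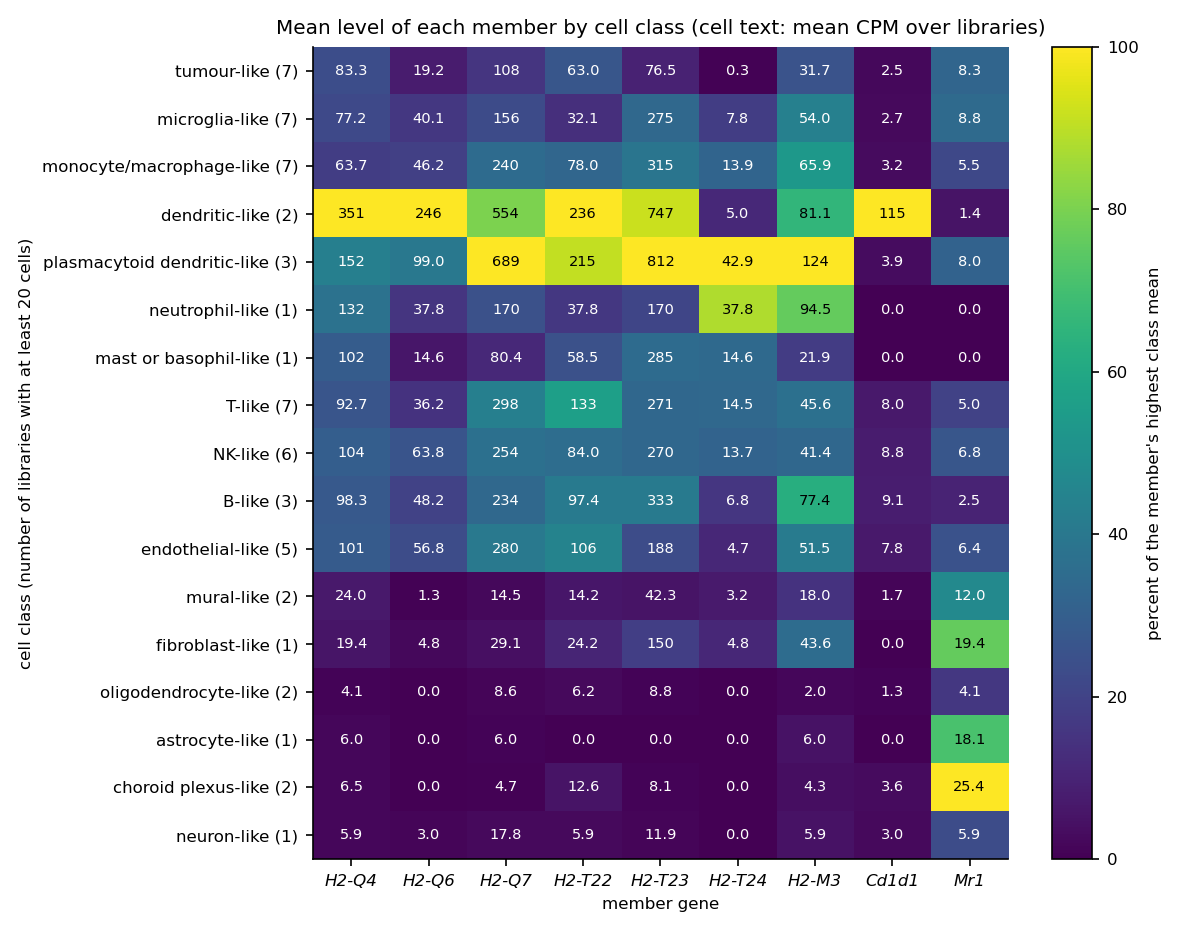
Mean level of each member (columns) by cell class (rows, with the number of libraries that had at least 20 cells), as mean CPM over libraries in the cell text and as percent of the member's highest class in the shading. Means of different classes rest on different libraries, such as BP replicate 1 and UT for dendritic-like and IgG replicate 2 and CD40 for choroid plexus-like cells. Class and library are thus mixed. The H2-Q4 mean is 152 CPM in plasmacytoid dendritic-like and 83.3 in tumour-like cells, but it was above the tumour-like level in 1 of 3 libraries. H2 members other than H2-T24 reach from dendritic-like to tumour-like cells, H2-T24 and Cd1d1 are highest in plasmacytoid dendritic-like (42.9 CPM) and dendritic-like cells (115 CPM), and Mr1 is highest in choroid plexus-like cells (25.4 CPM).

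**Figure D2:**
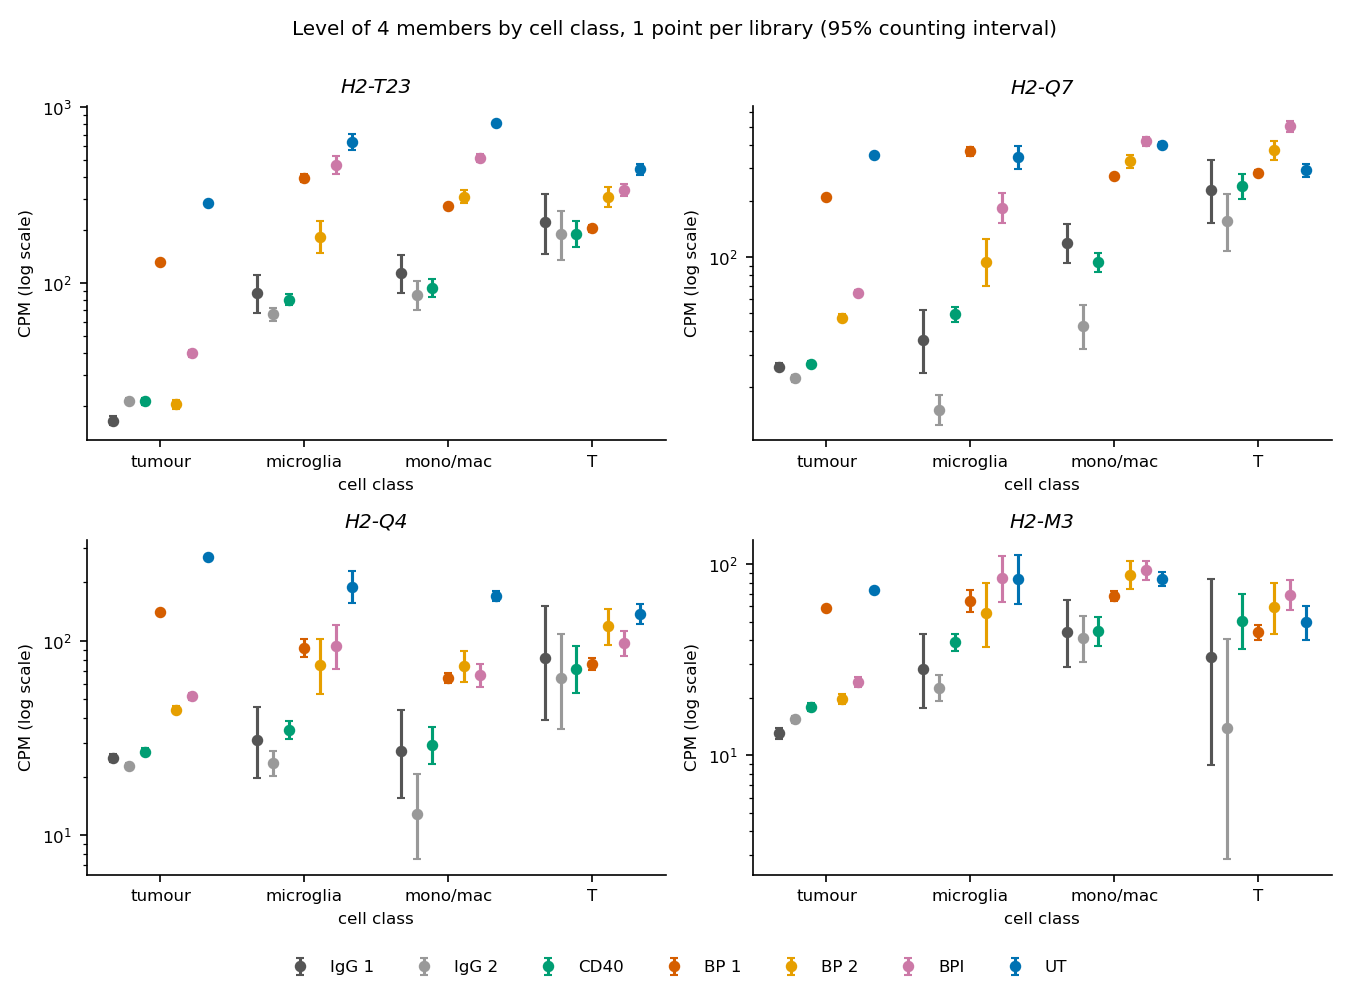
Level of 4 members in tumour-like, microglia-like, monocyte/macrophage-like and T-like cells, with CPM on a log axis, 1 point per library and exact 95% Poisson intervals. UT and BP replicate 1 lie highest in tumour-like cells for H2-T23 (286 and 131 CPM), while T-like cells differ less between libraries (189 to 444 CPM).

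In tumour-like cells 6 members, H2-Q4, H2-Q6, H2-Q7, H2-T22, H2-T23 and H2-M3, were highest in UT and next highest in BP replicate 1, the libraries whose tumour-like cells also held most interferon-response RNA. The interferon list holds 57 measured genes, none of them a member or a class I pathway gene; Bst2, Iigp1 and Isg15 had the most UMIs in tumour-like cells. It summed to 1683 and 1111 CPM in IgG replicates 1 and 2, 859.7 in CD40, 10542 and 2387 in the BP libraries 1 and 2, 5467 in BPI and 17486 in UT. Isg15, a ubiquitin-like protein raised by interferon, stood at 149, 58.7, 22.5, 594, 193, 471 and 1639 CPM in the same order. After each cell was thinned to 2000 UMIs, 99.0% of tumour-like cells in UT and 97.4% in BP replicate 1 had 5 or more interferon UMIs, against 69.1% in BPI, 31.3% in BP replicate 2, 21.2% and 10.2% in IgG and 5.79% in CD40. Left out as shallower than 2000 UMIs were 39 to 235 tumour-like cells per library.

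H2-Q7 in tumour-like cells stood at 14.8 times the IgG mean in UT, 8.76 times in BP replicate 1, 2.66 times in BPI, 1.97 times in BP replicate 2 and 1.10 times in CD40. The interferon list stood at 12.5, 7.55, 3.91, 1.71 and 0.616 times its IgG mean in the same order of libraries. H2-T23 stood at 15.2, 6.94, 2.10, 1.08 and 1.12 times, and H2-T22 at 13.2, 4.80, 1.70, 1.21 and 1.17 times. H2-Q4, at 25.02 and 22.8 CPM in IgG replicates 1 and 2, reached 272 CPM in UT, 141 in BP replicate 1, 51.9 in BPI, 44.3 in BP replicate 2 and 26.9 in CD40. H2-Q6 stood at 8.20 and 2.08 CPM in the IgG libraries, 1.73 in CD40, 22.2 and 15.7 in the BP libraries 1 and 2, 19.1 in BPI and 65.1 in UT. It was the member whose IgG libraries lay farthest apart among these 6. H2-M3 had a smaller span: 13.1 and 15.4 CPM in IgG, 17.9 in CD40, 59.2 and 19.7 in BP, 24.1 in BPI and 72.9 in UT. The classical genes were spread alike, with H2-D1 at 12.5, 6.79, 3.23, 2.27 and 1.12 times its IgG mean in UT, BP replicate 1, BPI, BP replicate 2 and CD40.

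Of the other 3 members Mr1 did not have UT and BP replicate 1 on top, and Cd1d1 and H2-T24 did, at low levels. Mr1 stood at 7.61 and 9.84 CPM in IgG replicates 1 and 2, 10.096 in CD40, 8.21 and 7.54 in the BP libraries 1 and 2, 7.10 in BPI and 7.55 in UT. UT, with the most interferon RNA, thus lay close to IgG replicate 1 (432 and 539 UMIs) and below IgG replicate 2. Cd1d1 stood at 1.03 and 2.34 CPM in IgG, 2.08 in CD40, 2.57 and 0.972 in BP, 1.09 in BPI and 7.76 in UT, so that only UT was clear of the IgG range by more than the distance between the IgG libraries. H2-T24 had too few UMIs in tumour-like cells to separate most libraries.

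**Figure D3:**
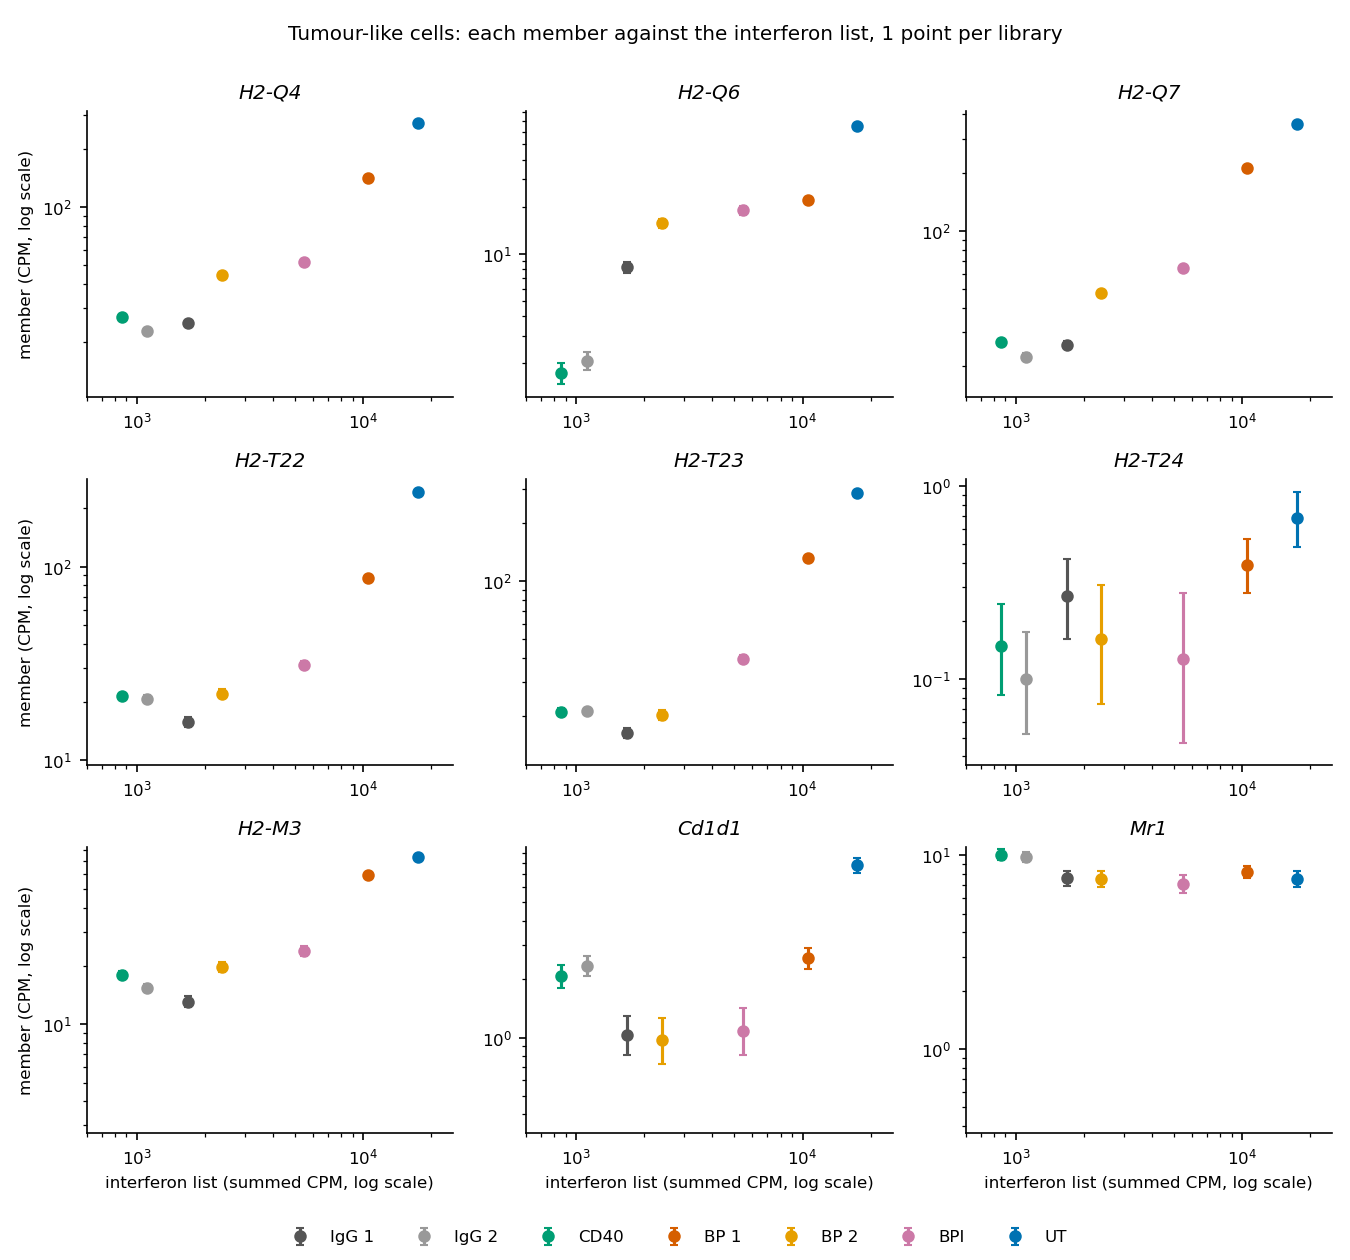
Level of each member in tumour-like cells (CPM, log axis, with exact 95% Poisson intervals) against the summed level of the interferon list (CPM, log axis), 1 point per library. H2-Q4, H2-Q6, H2-Q7, H2-T22, H2-T23 and H2-M3 are highest in UT and BP replicate 1, which have 17486 and 10542 CPM of the list, while Mr1 stays between 7.10 and 10.096 CPM.

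None of these group differences passed edgeR's test in tumour-like cells, while DESeq2 called 6 members in UT (beside 4.05% of genes) and 0 in BP, BPI and CD40. In BP against IgG, edgeR's quasi-likelihood test called 0 of 20288 genes at an adjusted p of 0.05 (0% of genes, while 1.95% had an unadjusted p under that value). By edgeR, H2-Q7 differed by 2.32 on the log2 scale (SE 0.66), H2-T23 by 1.90 (SE 0.80), H2-Q4 by 1.86 (SE 0.51), H2-Q6 by 1.81 (SE 0.74), H2-T22 by 1.503 (SE 0.60) and H2-M3 by 1.39 (SE 0.49). Mr1 differed by -0.16 (SE 0.33) and Cd1d1 by 0.03 (SE 0.69), and the adjusted p was 0.999945 for all 9. The BP libraries lie far apart, 211 and 47.5 CPM for H2-Q7 and 131 and 20.3 CPM for H2-T23. Both BP libraries were above both IgG libraries for H2-Q4, H2-Q6, H2-Q7, H2-T22 and H2-M3, 5 of 9 members beside 9.96% of all genes with at least 10 UMIs, and BP replicate 2 was not above both for H2-T23. The median log2 difference of the 9 members was 1.503, that of the 17 class I pathway genes 1.32 and that of all genes 0.0034. The members' median was 0.39 without BP replicate 1 and 1.92 without BP replicate 2. A p that misses the threshold does not show that the groups were alike.

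BPI against IgG gave a median of 0.98 over the members, with H2-Q6 at 2.06 (SE 0.85), H2-Q7 at 1.61 (SE 0.74) and H2-T23 at 1.29 (SE 0.92), and 0 of 20288 genes called by edgeR (0.991% at an unadjusted p under 0.05). The BPI library was above both IgG libraries for 6 of 9 members, against 16.5% of genes. CD40 against IgG gave a median of 0.04, with H2-Q6 at -1.75 (SE 0.96), and 0 genes called (0.069% unadjusted). The CD40 median was -0.02 without IgG replicate 1. H2-Q6 stood at 1.73 CPM in CD40, beside 8.20 CPM in IgG replicate 1 and 2.08 in IgG replicate 2. The CD40 library was above both IgG libraries for 5 of 9 members, near the 45% of all genes. Of these 4 comparisons UT against IgG gave the largest median difference, with 3.45 over the members and H2-T23 at 3.88 (SE 0.94; adjusted p = 0.378), H2-Q7 at 3.83 (SE 0.77), H2-T22 at 3.68 (SE 0.70), H2-Q6 at 3.57 (SE 0.84), H2-Q4 at 3.45 (SE 0.59) and H2-M3 at 2.31 (SE 0.56). Here edgeR called 0 of 20076 genes, while 12.4% had an unadjusted p under 0.05. DESeq2 called 814 genes (4.05%) with those 6 members among them. UT draws on another barcode list, so this difference cannot be told apart from one between libraries. The UT median was 2.86 without IgG replicate 2. The UT library was above both IgG libraries for 8 of 9 members, against 40% of genes.

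Within set A, where library names are consecutive, BPI stood at 2.48 times IgG replicate 1 for H2-Q7, 2.41 times for H2-T23, 2.32 times for H2-Q6, 2.07 times for H2-Q4, 1.97 times for H2-T22 and 1.84 times for H2-M3, beside 3.25 times for the interferon list. BP replicate 2 stood at 1.92 times for H2-Q6, 1.84 times for H2-Q7, 1.77 times for H2-Q4, 1.51 times for H2-M3, 1.40 times for H2-T22 and 1.24 times for H2-T23, beside 1.42 times for the list. Within set B, CD40 stood at 0.832 to 1.19 times IgG replicate 2 for these 6 members and at 0.774 times for the list. Each of these ratios compares 1 library with 1 library and has no test. Markers of other cells in tumour-like cells were also uneven between libraries: the 10 monocyte/macrophage markers summed to 319 CPM in BP replicate 1 and 99.3 to 130 CPM elsewhere, and the 9 T markers to 9.26 in BP replicate 1, 6.90 in UT and 1.03 to 4.28 elsewhere, with no T marker at 0 outside IgG replicate 2. Their part in the members' levels was not tested, while subtracting the estimated free RNA (1.01% to 3.997% of tumour-like UMIs) left the 6 differences uncalled and in the same direction.

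Within a library, tumour-like cells with more interferon UMIs also held more of the same 6 members. In each library the 20% of thinned cells with the most interferon UMIs were set against the 50% with the fewest, and their unthinned sums were tested with library as a block (edgeR quasi-likelihood test). H2-T23 rose by 1.14 on the log2 scale (SE 0.12; adjusted p = 0.000302), H2-T22 by 0.82 (SE 0.09; 0.000379), H2-Q7 by 0.79 (SE 0.07; 0.000124), H2-Q4 by 0.71 (SE 0.09; 0.000896), H2-Q6 by 0.63 (SE 0.11; 0.00866) and H2-M3 by 0.60 (SE 0.11; 0.0133). Of 15355 genes tested outside the interferon list 2.57% rose, and 3.22% were called in either direction. Cd1d1 differed by 0.27 (SE 0.17; adjusted p = 0.419) and Mr1 by 0.02 (SE 0.09; adjusted p = 0.950), and neither passed. H2-T24 had too few UMIs to be tested, with 21 in interferon-high and 6 in interferon-low cells of UT, 7 and 6 in IgG replicate 1, 15 and 12 in BP replicate 1, 2 and 3 in BPI, 4 and 7 in CD40, 0 and 7 in IgG replicate 2 and 0 and 6 in BP replicate 2.

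H2-T23 in interferon-low and interferon-high cells stood at 179 and 475 CPM in UT, 99.8 and 190.3 in BP replicate 1, 21.4 and 77.8 in BPI, 14.8 and 37.1 in BP replicate 2, 12.9 and 26.2 in IgG replicate 1, 17.4 and 33.0 in IgG replicate 2 and 19.0 and 28.3 in CD40. The ratio ran from 1.49 in CD40 to 3.63 in BPI. H2-Q7 ranged from 1.28 in CD40 to 2.07 in UT, H2-T22 from 1.27 in CD40 to 2.25 in BP replicate 2, H2-Q4 from 1.21 in BP replicate 1 to 2.04 in BP replicate 2, and H2-Q6 from 1.05 in BP replicate 1 to 1.96 in IgG replicate 2. All 6 called members were higher in interferon-high cells in 7 of 7 libraries, as were 3.74% of all genes with at least 10 UMIs. Cd1d1 was higher in 4 and Mr1 in 3 of 7. The untreated and isotype-treated libraries thus had the same direction as the treated ones.

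**Figure D4:**
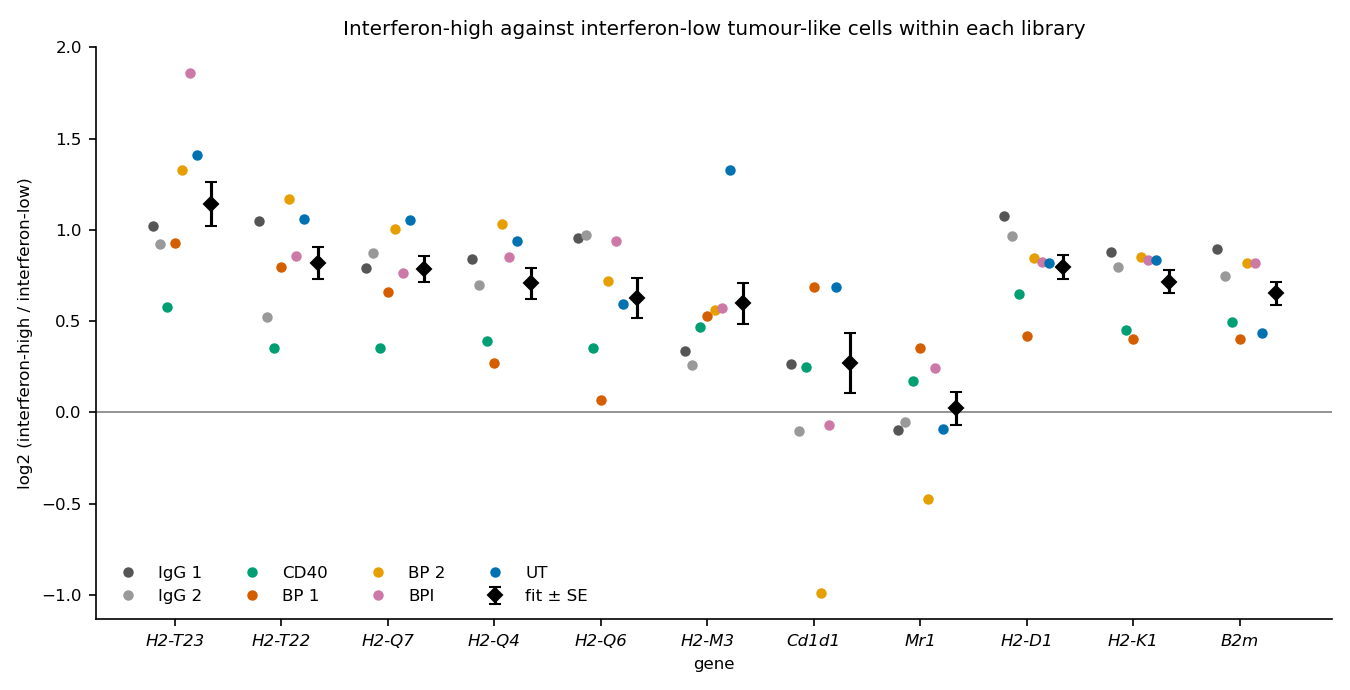
Log2 ratio of the level in interferon-high to that in interferon-low tumour-like cells for each gene, 1 coloured point per library, with the fitted difference and its SE as a black diamond. The 6 called H2 members and H2-K1, H2-D1 and B2m lie above 0 in all 7 libraries, while Cd1d1 and Mr1 lie on both sides of 0.

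When tumour-like cells of each library were ordered by interferon UMIs and cut into 5 equal bins, bin 5 with the most, the level of H2-Q7 was higher in each bin than in the one before in 7 of 7 libraries, that of H2-Q4, H2-T22 and H2-T23 in 4, that of H2-M3 in 2 and that of H2-Q6 in 1. Bin 5 was the highest for all 6 in every library. Cells of different libraries with like interferon UMIs had unequal levels of some members. At a mean of 12.1 to 15.4 interferon UMIs per 2000, H2-Q7 stood at 202 CPM in bin 1 of UT, 188 in bin 2 of BP replicate 1, 72.5 in bin 4 of BPI and 75.0 in bin 5 of BP replicate 2. H2-T23 stood at 195 CPM in bin 2 of UT (22.4 interferon UMIs), 147 in bin 4 of BP replicate 1 (24.8) and 77.8 in bin 5 of BPI (27.5). H2-Q6 did not set BP replicate 1 apart in this way. At 13.4 to 15.4 interferon UMIs it stood at 22.3 CPM in bin 2 of BP replicate 1. There it stood at 21.9 in bin 4 of BPI and 22.2 in bin 5 of BP replicate 2. Bin 5 of BPI (28.3) was above all 5 bins of BP replicate 1 (21.4 to 23.2). UT stood higher for H2-Q6, at 42.4 CPM in bin 1 (12.1 interferon UMIs). At like interferon UMIs the BP libraries thus lay far apart for H2-Q7 (188 and 75.0 CPM) and close together for H2-Q6, and UT and BPI are 1 library each.

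**Figure D5:**
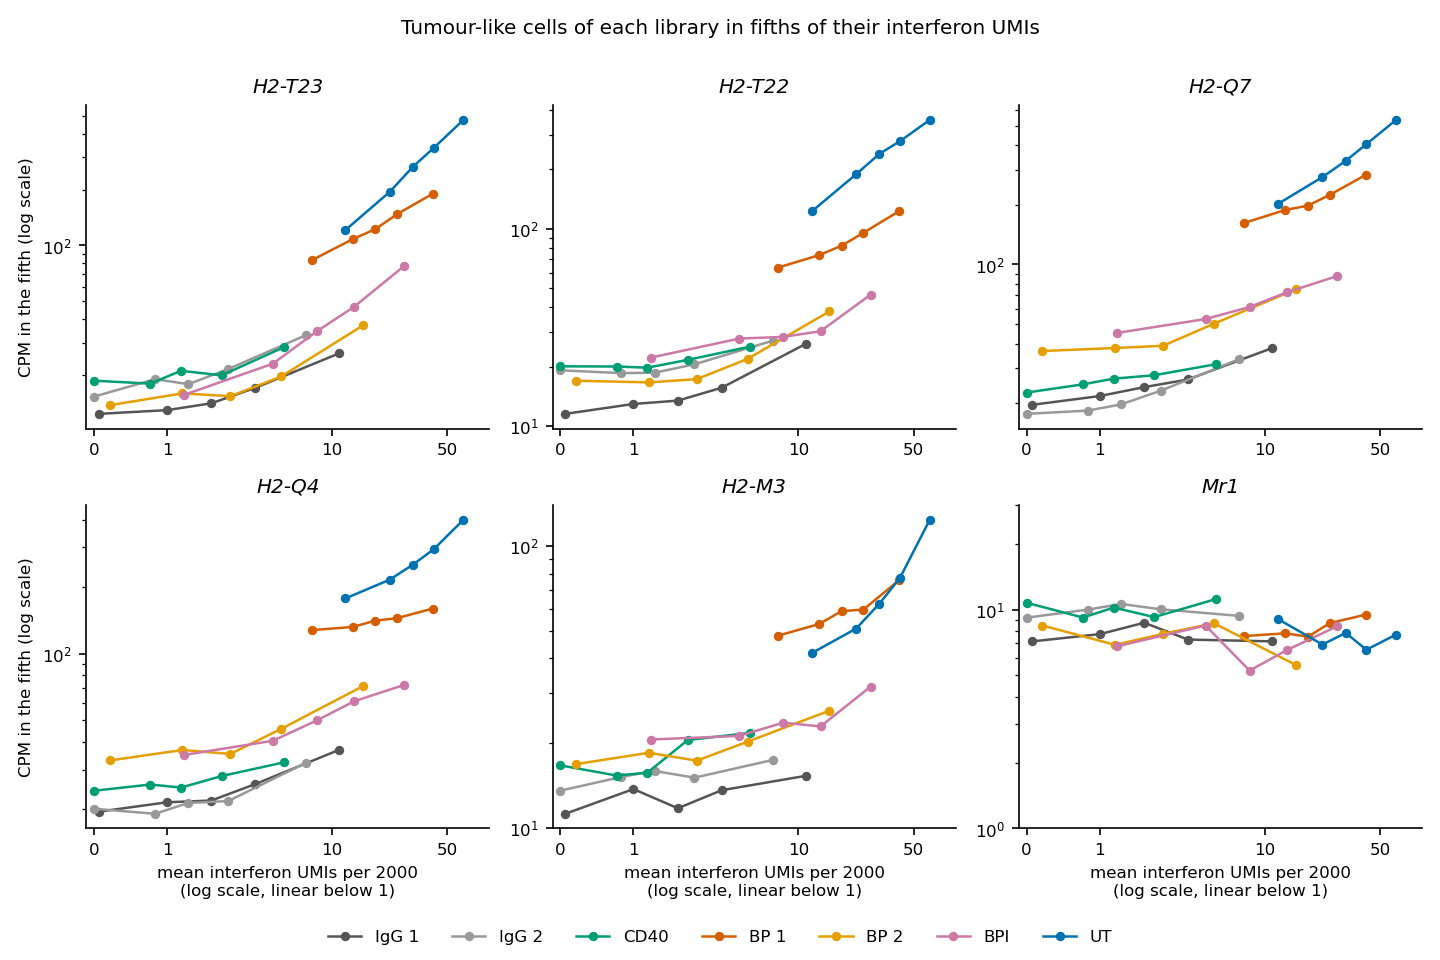
Level of 6 members in 5 equal bins of the tumour-like cells of each library, ordered by interferon UMIs (CPM on a log axis against the mean interferon UMIs per 2000, log axis that is linear below 1), with 1 line per library. Within every library the H2-Q7 line goes up over all 5 bins, and at like interferon UMIs its UT and BP replicate 1 lines lie above those of BPI and BP replicate 2, while the Mr1 lines overlap.

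Some markers of other cells were higher in interferon-high than in interferon-low cells, those of microglia in every library. The UMIs of 10 immune and endothelial genes, Cd74 among them, summed to 416 CPM in interferon-high and 218 in interferon-low cells of UT and to 258 and 164 in BP replicate 1, but to 34.3 and 27.7 in BPI, 19.0 and 17.4 in BP replicate 2, 13.8 and 13.3 in IgG replicate 1, 18.9 and 16.9 in IgG replicate 2 and 28.4 in both bins of CD40. Cd74, an MHC class II chaperone that interferon-gamma can raise in many cell types, stood at 316 and 115 CPM in UT and 169 and 83.6 in BP replicate 1, and the other 9 genes at 99.5 and 104 in UT and 89.4 and 80.6 in BP replicate 1. In UT the class marker lists stood at 6.87 and 6.92 CPM for T, 40.4 and 47.0 for endothelial, 273 and 255 for microglia, 136 and 103 for monocyte/macrophage, 3.60 and 2.20 for NK and 7.03 and 5.56 for B markers. In BP replicate 1 they stood at 10.5 and 8.95 CPM for T, 35.6 and 36.2 for endothelial, 247 and 177 for microglia, 340.1 and 311 for monocyte/macrophage, 4.86 and 3.29 for NK and 10.3 and 4.32 for B markers. Microglia markers were higher in interferon-high cells in every library, such as 131 and 119 CPM in BPI, 132 and 120 in IgG replicate 1 and 275 and 260 in CD40. Monocyte/macrophage markers were higher there in every library but BPI (124 and 133 CPM). NK markers were higher in interferon-high cells in 5 of 7 libraries. The part of these lists in the members' differences was not tested beyond the cells described next. With only cells that had 0 UMIs of all 10 genes, which keeps 132 cells in UT, 304 in BP replicate 1 and 3133 to 4438 elsewhere, the same 6 members were called, and likewise without UT and BP replicate 1 together. With the type II-leaning list (interferon-gamma targets such as the Gbp genes) in place of the whole list, 5 were called and H2-M3 was not (adjusted p = 0.0645).

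Between groups, the size of the rise passed the test for 1 member, in a call that needed both IgG libraries. The bins were not equally far apart in interferon UMIs. Their means per 2000 in low and high cells were 19.5 and 62.7 in UT, 0.771 and 11.1 in IgG replicate 1 and 0.535 and 7.00 in IgG replicate 2. The interferon list's own rise differed from IgG by a median of -1.29 in UT, -0.68 in BP, -0.44 in BPI and -1.21 in CD40. The part of this in the members' differences was not tested. The high-minus-low difference of H2-M3 was 1.05 larger in the UT library than in IgG on the log2 scale (SE 0.11; edgeR test of the interaction, adjusted p = 0.0314; 1.62% of 15355 genes were called higher). UT is 1 library, so its spread is taken from the other groups, and the call was lost without IgG replicate 1 (1.09, adjusted p = 0.0676) or 2 (0.998, adjusted p = 0.210). It was also lost in cells with 0 UMIs of the 10 immune and endothelial genes (0.75, adjusted p = 0.429; 132 cells in UT), but not with Cd74 left out of those genes (1.30, adjusted p = 0.0425; 400 cells). Its level in interferon-low and interferon-high cells was 49.5 and 124 CPM in UT, against 12.1 and 15.3 in IgG replicate 1 and 14.5 and 17.4 in IgG replicate 2, a ratio of 2.51 in UT and 1.198 to 1.485 in the other 6 libraries. H2-T23 differed by 0.46 (SE 0.16; adjusted p = 0.148) in UT and by 0.89 in BPI (SE 0.17; adjusted p = 0.437), neither called, although both were without BP replicate 1 (adjusted p = 0.00543 and 0.00232) or BP replicate 2 (0.00295 and 0.000598). For BP, BPI and CD40 edgeR called 0 of 15355 genes, while 5.32%, 5.63% and 2.04% had an unadjusted p under 0.05. Without BP replicate 1 it called 30, 71 and 11 genes in these comparisons, and without BP replicate 2 it called 496, 110 and 27, with H2-Q4 (-0.49, adjusted p = 0.00637) and H2-Q6 (-0.90, adjusted p = 0.00244) among them in BP. For H2-Q7 the difference to IgG was -0.01 (SE 0.12) in BP, -0.08 (SE 0.15) in BPI, -0.45 (SE 0.16) in CD40 and 0.23 (SE 0.14) in UT.

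The class I pathway, as far as listed, rose with the members in interferon-high cells. Of 17 genes 14 passed: the classical chains H2-D1 (0.80, SE 0.07) and H2-K1 (0.72, SE 0.06), the light chain B2m (0.65, SE 0.06), the peptide transporter genes Tap1 (1.22, SE 0.13) and Tap2 (0.65, SE 0.07), tapasin Tapbp (1.38, SE 0.16) and Tapbpl, the immunoproteasome subunits Psmb8, Psmb9 and Psmb10, the proteasome activators Psme1 and Psme2, the trimming peptidase Erap1 and the activator Nlrc5 (1.24, SE 0.11). The 3 that did not pass were the general chaperones Calr (0.07, SE 0.03), Canx (-0.05, SE 0.03) and Pdia3 (0.09, SE 0.03). The list's median was 0.72, that of the members tested 0.67 and that of all genes -0.0066. Of 8 other class I-like genes tested, H2-Q10 (0.86, SE 0.21; adjusted p = 0.0494), Gm7030 (0.86, SE 0.09) and Gm8909 (0.57, SE 0.10) rose, and Fcgrt, which carries antibodies, did not pass (-0.01, SE 0.09). The interferon list itself was used to choose the cells, so its rise is no finding.

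In monocyte/macrophage-like cells most members lay above IgG in BP, BPI and UT, and 1 passed edgeR's test. The interferon list stood there at 12319 and 2943 CPM in IgG replicates 1 and 2, 2158 in CD40, 13542 and 18203 in the BP libraries 1 and 2, 29624 in BPI and 28697 in UT. Over 8 tested members the median log2 difference to IgG in monocyte/macrophage-like cells was 1.41 for BP, 2.15 for BPI and 0.0063 for CD40, and over 9 members it was 2.67 for UT (3.60 without IgG replicate 1 and 2.07 without IgG replicate 2). H2-Q6 passed in UT (4.31, SE 0.56; edgeR adjusted p = 0.0484), among 12 called genes of 12421 (0.0966%; 0.0805% higher and 0.0161% lower). Its levels were 13.6 and 5.32 CPM in IgG replicates 1 and 2 (8 and 7 UMIs), 13.6 in CD40, 48.4 and 54.7 in BP, 54.1 in BPI and 134 in UT, so the UT library lay far above the others. The call was lost with free RNA subtracted (edgeR adjusted p = 0.0528), where the members' median was 2.71, and without IgG replicate 2. H2-Q4 (3.51, SE 0.53; adjusted p = 0.0592), H2-T23 (3.37, SE 0.53; 0.0612) and H2-T22 (3.09, SE 0.51; 0.0667) in UT missed the threshold with edgeR. DESeq2 called H2-Q4, H2-Q6, H2-Q7, H2-T22 and H2-T23 in UT, beside 1.6% of genes. It called H2-Q6 and H2-Q7 in BP (0.898% of genes) and H2-Q6, H2-Q7 and H2-T23 in BPI (1.58%). In BP and BPI edgeR called 0 of 11804 genes (7.81% and 10.4% at an unadjusted p under 0.05), although 7 of 9 members in each were above both IgG libraries, beside 14.7% and 20.1% of genes. Nearly all cells (99.7%) of 1 of the monocyte/macrophage-like clusters came from BP replicate 1, so these sums compare partly different clusters. Markers of other cells also moved with the groups here: the 9 microglia markers summed to 960 and 2044 CPM in IgG replicates 1 and 2 and 1432 in CD40, against 416 and 703 in BP, 534 in BPI and 653 in UT, and the 9 endothelial markers to 580 CPM in BP replicate 1 against 46.3 to 184 elsewhere. Their part in the members' differences was not tested.

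In microglia-like cells the medians were 1.81 for BP, 1.98 for BPI, 0.35 for CD40 and 3.08 for UT, with 0 genes called by edgeR in each (4.58%, 3.46%, 0.316% and 8.17% at an unadjusted p under 0.05). DESeq2 called 36, 19, 0 and 75 genes there (0.292%, 0.154%, 0% and 0.776%). Among them were H2-Q7 in BP, H2-T23 in BPI and H2-Q4, H2-Q6, H2-Q7, H2-T22 and H2-T23 in UT. H2-Q7 there stood at 36.0 and 15.2 CPM in IgG replicates 1 and 2, 49.6 in CD40, 371 and 94.7 in BP, 185 in BPI and 344 in UT, and H2-T23 at 87.4, 66.4, 80.3, 396, 184, 471 and 639 in the same order. The microglia-like class of BP replicate 1 stood apart: 90.9% of the cells of 1 microglia-like cluster came from that library, its 9 microglia markers summed to 4430 CPM against 8612 to 13077 elsewhere, its monocyte/macrophage markers to 1585 CPM against 107 to 1341, and its endothelial markers to 251 CPM against 34.4 to 76.6, and their part in the members' levels was not tested. Without BP replicate 1 the BP median was 1.42. H2-Q7 and H2-T23 were above both IgG libraries in both BP libraries, as were 7 of 9 members beside 13.6% of genes. In T-like cells the medians were 0.24, 0.72, -0.03 and 0.96 in the same order of groups. The BP median turned to -0.31 without BP replicate 2 and was 0.66 without BP replicate 1 and 0.68 without IgG replicate 1; without IgG replicate 1 the BPI median was 1.40 and the CD40 median 0.46. The 10 monocyte/macrophage markers summed in T-like cells to 1409 and 1237 CPM in IgG replicates 1 and 2, 778 in CD40, 1559 and 2454 in BP, 2881 in BPI and 2002 in UT, and their part in these medians was not tested. In T-like cells no member was called while 106, 68, 13 and 248 other genes were (1.16%, 0.742%, 0.142% and 2.66%), and both BP libraries were above both IgG libraries for 3 of 9 members, against 28.7% of genes.

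Some receptor genes for these molecules differed between groups in T-like cells, where no member was called. Klrd1 (CD94), Klrc1 and Klrc2 (NKG2A and NKG2C) form the receptors of Qa-1. Klrc1 in T-like cells stood at 57.3 and 4.62 CPM in IgG replicates 1 and 2 (7 and 1 UMIs), 55.8 in CD40, 131 and 135 in BP, 173 in BPI and 228 in UT. Its log2 difference to IgG was 2.23 for BP (SE 0.57; edgeR adjusted p = 0.0174), 2.87 in BPI (SE 0.61; 0.00128) and 3.10 in UT (SE 0.61; 7.45e-05). Klrc2 was higher by 2.96 (SE 0.74; 0.0124), 4.01 (SE 0.75; 8.81e-05) and 3.56 (SE 0.76; 0.000468), and Klrd1 by 1.63 (SE 0.46; 0.0428), 2.02 (SE 0.52; 0.0225) and 2.44 (SE 0.53; 0.000586), in the same order. Trdc, the constant part of the delta chain of gamma-delta T cells, was lower in BP (-1.83, SE 0.47; 0.0178), and Zbtb16, a regulator of NKT and other innate-like T cells, was lower in BP (-2.27, SE 0.61; 0.0259) and BPI (-3.25, SE 0.80; 0.0125). Of 11 genes tested in BP from the list of receptors and of genes that mark T cell kinds tied to them, Zbtb16 (a transcription factor) and Trdc included, 3 were called higher and 2 lower, beside 0.928% and 0.229% of genes. The gamma chain genes Tcrg-C1 and Tcrg-C2 were among those tested and were not called. Trdc was not called in BPI, CD40 or UT. The IgG libraries held 39 and 57 T-like cells only. NK markers in T-like cells summed to 180.2 and 152 CPM in IgG and 310.1 to 382 CPM in the other groups, and their part in these differences was not tested. All calls of these 5 genes in BP and BPI were lost with DESeq2 (adjusted p of 0.0753 for Klrc2 in BPI, and higher elsewhere) and without IgG replicate 2, where the difference of Klrc1 in BP was 1.12 (adjusted p = 0.795) and that of Klrc2 in BPI 3.23 (0.324). In UT Klrc1, Klrc2 and Klrd1 were also called by DESeq2 (adjusted p = 0.0188, 0.0443 and 0.0117), but not without IgG replicate 2 (0.318, 0.215 and 0.0837).

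Over the 58 sums of a library and class with at least 20 cells, 5 members had H2-K1 among the 3 genes whose log2(CPM + 5) correlated most with theirs, among 7687 genes. These were H2-Q7 (Pearson r of 0.95), H2-T23 (0.94, beside Sp110 at 0.95 and H2-D1 at 0.94), H2-Q6 (0.91), H2-M3 (0.90) and H2-Q4 (0.89), and H2-T22 was most like Psmb9 (0.90), an immunoproteasome subunit. H2-T24 was most like Zup1 and Ifi214 (0.79 each), Cd1d1 like Birc2 (0.73), Sinhcaf (0.71) and Ccr7 (0.71), and Mr1 like Cgrrf1 (0.65), Golga2 (0.65) and Uqcr11 (0.64). The sums share libraries, cell classes and depth, so these values are a description.

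Close copies, and sequence shared with other genes, limit how far reads can be given to 1 gene. Of the 60-base stretches in the last 500 bases of its transcripts, where 3′ reads fall, H2-T22 shared 51.2% with H2-T10, H2-Q6 shared 38.0% with other genes (23.4% with H2-Q7), H2-T23 30.2%, H2-Q4 24.7% and H2-Q7 9.86% (with H2-Q5), while H2-M3, Cd1d1 and Mr1 shared none. For H2-T23 and H2-Q4 the genes that shared most were Rab33b (15.4%) and Gm43321 (15.0%), neither of them in the class I lists used here. Class I genes shared with them too: H2-K1, H2-Q1, H2-Q4 and Gm8909 with H2-T23, and H2-Q6 with H2-Q4. The symbols H2-Q5, H2-Q8, H2-Q9 and H2-T10 have no entry in the count tables, so their levels could not be set beside those of the members. The values of H2-T22 and H2-Q6, and by a smaller share those of H2-T23, H2-Q4 and H2-Q7, are therefore uncertain as to the gene. H2-M3 is the member with a rise in interferon-high cells that this does not touch.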

How the data were processed

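The deposited files hold raw counts of UMIs per gene for every barcode of 7 droplet libraries, made by the authors with Cell Ranger 7.0.1 on mm10, per the submitters' processing notes; the matrix headers name version 4. Barcodes were kept as cells from 1000 UMIs and 500 genes upwards if mitochondrial UMIs made up no more than 15% (51795 cells). The highest Scrublet scores, 0.8% per 1000 cells, were removed as doublets. Cells were clustered (scanpy 1.11.5, 2000 variable genes, 30 components, 15 neighbours, Leiden resolution 1) without the members, the interferon list and the class I genes, and clusters were named by a rule set after seeing the data. Counts were summed per library and class (at least 20 cells) and tested with edgeR 4.0.16 (R 4.3.3; quasi-likelihood test, Benjamini-Hochberg adjustment, threshold 0.05); DESeq2 1.42.0 was an alternative. BP, BPI and CD40 were set against IgG in 6 libraries and UT against IgG in 7. NK-like cells were not tested, since IgG replicate 2 had 17. Median UMIs per kept cell were 8855 to 17876.5. Libraries pool mice, so p-values measure only the spread between libraries, and intervals cover counting error only. Interferon-high and interferon-low cells were chosen after thinning each cell to 2000 UMIs. Tests were tried on simulated data.

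The members and lists were chosen with earlier results of these data known. Named are all members, H2-K1, H2-D1 and B2m, the genes of the fixed lists with the 3 highest levels or past the test, the 3 interferon genes with most UMIs, and the 3 genes most like each member. Samples with the same replicate number did not deviate together.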

Additional observations from a re-analysis of the deposited data

Results flagged for a closer look

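The rise of H2-M3 in interferon-high over interferon-low tumour-like cells differed between UT and IgG by 1.05 on the log2 scale, by a test of the difference itself (edgeR, SE 0.11, adjusted p = 0.0314). UT is 1 library, with no second untreated library to compare, and the call was lost without IgG replicate 1 (adjusted p = 0.0676) or IgG replicate 2 (0.210). The bins of UT and IgG were not equally far apart in interferon UMIs, and the part of this in the difference was not tested. Of the 10 immune and endothelial genes, Cd74 stood at 316 CPM in interferon-high and 115 in interferon-low cells of UT. The other 9 together stood at 99.5 and 104. Restricted to cells with 0 UMIs of these 9 genes the difference was 1.30 (adjusted p = 0.0425), and with 0 UMIs of all 10 it was 0.75 (0.429).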

How the results depend on the processing

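All 315 class-level means stayed within their spread. Libraries lay far apart for some of these means, such as H2-T23 in tumour-like cells (mean 76.5 CPM, SD 101 over 7 libraries). Of 1188 log2 differences 47 lost and 142 gained a call and 26 changed sign. Counts of called genes depended on the tool and on low counts. With DESeq2, calls were 57, 5 and 814 genes (6 members) in tumour-like cells for BP, BPI and UT; 106 (2 members), 186 (3), 4 and 199 (5) in monocyte/macrophage-like cells for BP, BPI, CD40 and UT; 36 (1), 19 (1) and 75 (5) in microglia-like cells for BP, BPI and UT; and 5, 15, 0 and 93 in T-like cells for BP, BPI, CD40 and UT. Without a filter on low counts, monocyte/macrophage-like cells gave 424 (4 members), 615 (6), 44 (1) and 619 (5). These were out of 21382 genes tested for BP, BPI and CD40 and 21721 for UT. Microglia-like cells gave 315 (5), 129 (5), 39 and 296 (6), out of 22074 genes for BP, BPI and CD40 and 22120 for UT. With free RNA subtracted, UT in monocyte/macrophage-like cells gave 1 gene and 0 members. With IgG and BP libraries only, T-like cells gave 7 genes. The cause was not tested.

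With the replicate number as a block, BP gave 0 genes in tumour-like, 45 in monocyte/macrophage-like, 13 (1 member) in microglia-like and 0 in T-like cells; same-numbered samples had correlations of -0.694, -0.221, 0.0243 and -0.0511 in those classes, so they share only a number. The crossed pairing, chosen after seeing the data, gave 0, 512 (4 members), 0 and 101 genes.

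For interferon-high against interferon-low cells, 923 genes were called on unthinned scores, 210 with the type II list, 325 with cells at 0 UMIs of the 10 other-cell genes and 815 without the filter. The difference of BPI to IgG gave 1 gene with either the type I or the type II list, and that of UT gave 173 and 2536. In alternatives chosen after seeing the data, cells at 0 UMIs of the 10 or 9 other-cell genes gave 17 and 4 genes for BPI and 96 (0 members) and 16 (1) for UT, and leaving out 1 library gave 0 to 496 genes for BP (members 0 to 2), 0 to 110 for BPI (0 to 1), 0 to 27 for CD40 and 0 (without IgG replicate 2) to 2239 (without BP replicate 2) for UT (0 to 2). Signs changed for Cd1d1 in BP with free RNA subtracted (-0.019), for Cd1d1 in interferon-high cells at 0 UMIs of 10 (-0.23) or 9 genes (-0.031) and without UT and BP replicate 1 (-0.024), and for Mr1 on unthinned scores (-0.0018), at 0 UMIs of 10 (-0.051) or 9 genes (-0.095), without the filter (-0.0075) and without UT and BP replicate 1 (-0.028).

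Leaving out 1 library at a time, called genes ranged in monocyte/macrophage-like cells over 0 to 395 for BP (members 0 to 1), 0 to 336 for BPI (0 to 6) and 0 to 1258 for UT (0 to 6), in microglia-like cells over 0 to 677 (0 to 6), 0 to 97 (0 to 5) and 0 to 273 (0 to 6), in T-like cells over 7 to 238 for BP, 8 to 116 for BPI (members 0 to 1), 3 to 16 for CD40 and 57 to 367 for UT, and for interferon-high cells over 210 (without BP replicate 1) to 663. In monocyte/macrophage-like cells the highest counts came without BP replicate 2. Members above 0 went from 7 of 9 to 4 for CD40 in tumour-like cells (without IgG replicate 1), from 4 of 8 to 2 for CD40 in monocyte/macrophage-like cells (without IgG replicate 2) and from 6 of 8 to 3 for BP in T-like cells (without BP replicate 2). In BP, BPI and UT outside T-like cells, members that changed sign were H2-T24 in tumour-like cells (BP -0.10 to 1.47, BPI -0.92 to 0.62) and in monocyte/macrophage-like cells (BP -1.43 to 1.12, UT -1.44 to 0.67), Cd1d1 in tumour-like cells (BP -0.66 to 0.61, BPI -0.82 to 0.22), and Mr1 in tumour-like (BPI -0.19 to 0.045), monocyte/macrophage-like (BP -2.36 to 0.33, UT -0.54 to 0.25) and microglia-like cells (BP -2.64 to 0.050) and in interferon-high cells (-0.046 to 0.084).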
